A study of Mus musculus with 7 samples.

Results

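The high mobility group (HMG) proteins are small, abundant, non-histone proteins of chromatin, and 9 genes that encode them were described here across fetal muscle libraries: the HMGN genes *Hmgn1*, *Hmgn2*, *Hmgn3* and *Hmgn5*, the HMGB genes *Hmgb1*, *Hmgb2* and *Hmgb3*, and the HMGA genes *Hmga1* and *Hmga2*. They are 9 of the 31531 genes in the table, matched by symbol, and the table held all 9. The group was chosen by the normalized counts of the libraries below, because *Hmgn5* stood out between the genotypes, so the differences between genotypes in the 9 genes are given as a description, with no test. All 9 passed the minimum used for the comparison of all genes, a normalized count of 5 on average over the libraries.

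Muscle fibers came from fetuses at E17.5 (embryonic day 17.5), 4 of genotype wt and 3 of genotype dyW/dyW (dyW below), from crosses of heterozygous C57BL/6 mice, with 1 library per sample. The dyW allele disrupts *Lama2*, the gene of the laminin α2 chain, in every cell, and homozygous mice are a model of *LAMA2*-congenital muscular dystrophy. Fibers of the epaxial muscles, the back muscles along the spine, were freed by enzymatic digestion and retained on a strainer, so the lysates could also hold other cells of the tissue. The sex of the fetuses was not stated in the sources used here. The SMART-seq2 method copies poly(A) RNA into whole cDNA and amplifies it by PCR. The reads carry no molecular identifiers, so limits and intervals below cover counting error only.

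The 3 families act on chromatin in different ways. HMGN proteins bind the nucleosome core itself, compete with linker histone H1 and keep chromatin less compact. HMGB proteins carry 2 HMG boxes that bend DNA, and HMGB1 released from damaged or activated cells also serves as an alarm signal read by immune receptors. HMGA proteins bind the minor groove of AT-rich DNA through AT-hooks and are typical of embryonic and fetal cells, where *Hmga2* messenger RNA is held down later by let-7 microRNAs.

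The HMGN family is defined by its nucleosome-binding domain. The coding stretch most alike among the 4 HMGN genes is shown because it carries the core of that domain and places *Hmgn5* in the family. Each line is 30 bases of GRCm39 coding sequence read 5′ to 3′ on the minus strand, inside 1 coding exon, with capitals at the 15 positions identical in all 4 genes.
Hmgn1, chr16:95928511-95928540: CCcaagcGccGcTCcGCgaGgcTGTCgGCc
Hmgn2, chr4:133694077-133694106: CCacagaGaaGaTCtGCgaGgtTGTCtGCt
Hmgn3, chr9:82996826-82996855: CCcacaaGacGgTCgGCcaGgtTGTCcGCg
Hmgn5, chrX:108054463-108054492: CCaaagaGaaGaTCaGCccGacTGTCtGCt
Outside this domain *Hmgn5* differs from the others in size. Its coding sequence is 1218 bases long, whereas those of *Hmgn1*, *Hmgn2* and *Hmgn3* are 288, 270 and 297 bases, and the added length encodes the long acidic tail for which HMGN5 is known. The 3 HMGB coding sequences are 600 to 645 bases long, and each pair was identical at 75.8% to 78.7% of the bases of the shorter sequence.

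The libraries differed in ways that touch every value below. Depth was 470804 to 2220813 reads on genes in the wt libraries and 3663905 to 18297106 in the dyW libraries, so it did not overlap between the genotypes. *Lama2* was at 90.6 to 111 normalized counts in the wt libraries, 4.29 in dyW1 and 6.07 in dyW2, but 140 in dyW3, above every wt library. The third dyW library therefore went against its label, and it is termed the library labelled dyW3 where a direction rests on it. The summed level of 10 myofiber genes was 2836 to 84589 normalized counts in wt and 54.1 to 8469 in dyW, and in dyW1 6 of the 10, among them *Actc1* and *Ckm*, had no read. In wt1 the cartilage collagen *Col2a1* reached 415687 normalized counts. The summed level of 7 fibroblast genes did not overlap between the genotypes, with 4174 to 14747 in wt and 21951 to 32625 in dyW. In dyW1 this sum rested on *Col1a1* (8467) and *Col1a2* (12046). *Col3a1* was at 232 there, below the 581 to 4129 of the wt libraries, so the sum does not speak for each gene. In such whole lysates, fewer cells of a type and less RNA per cell cannot be told apart. Groups were compared on log2(normalized count + 1) with limma and Benjamini-Hochberg adjustment over 25791 genes. Genes with an adjusted p under 0.01 and an absolute log2 fold change over 1.5 are termed called, and fold changes on this scale understate the change of genes with low counts.

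*Hmgn5* alone among the 9 genes had normalized counts that did not overlap between the genotypes. The gene lies on the X chromosome, at chrX:108046597-108057647 on the minus strand of GRCm39, and its longest consensus coding transcript has 8 exons. In libraries wt1 to wt4 its normalized counts were 16.0, 24.3, 16.4 and 12.6. They were 92.9 in dyW1, 188 in dyW2 and 163 in the library labelled dyW3. Every dyW library was therefore above every wt library, including the one that goes against its label. The mean was 17.3 ± 4.94 for the wt libraries (SD, n = 4) and 148 ± 49.1 for the dyW libraries (SD, n = 3), a ratio of 8.53, and the log2 fold change was 3.00 with a standard error of 0.61. In the fit over all genes, where 0.0659% were called higher and 18.7% lower, *Hmgn5* was past the limits for a higher call and the other 8 genes were past neither. Since this contrast chose the gene, that restates the choice and is no test of it. *Hmgn5* also fell short of those limits when any 1 library other than the one labelled dyW3 was left out. No overlap with dyW above was seen in 3.28% of all genes tested, and no overlap with dyW below in 31.5%. These shares pool genes of all levels. Among genes averaging at least 50 normalized counts, 15 of 5883 autosomal genes were called higher and 142 lower. Of 206 such X-linked genes, 2 were called higher and 1 lower.

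**Figure D1:**
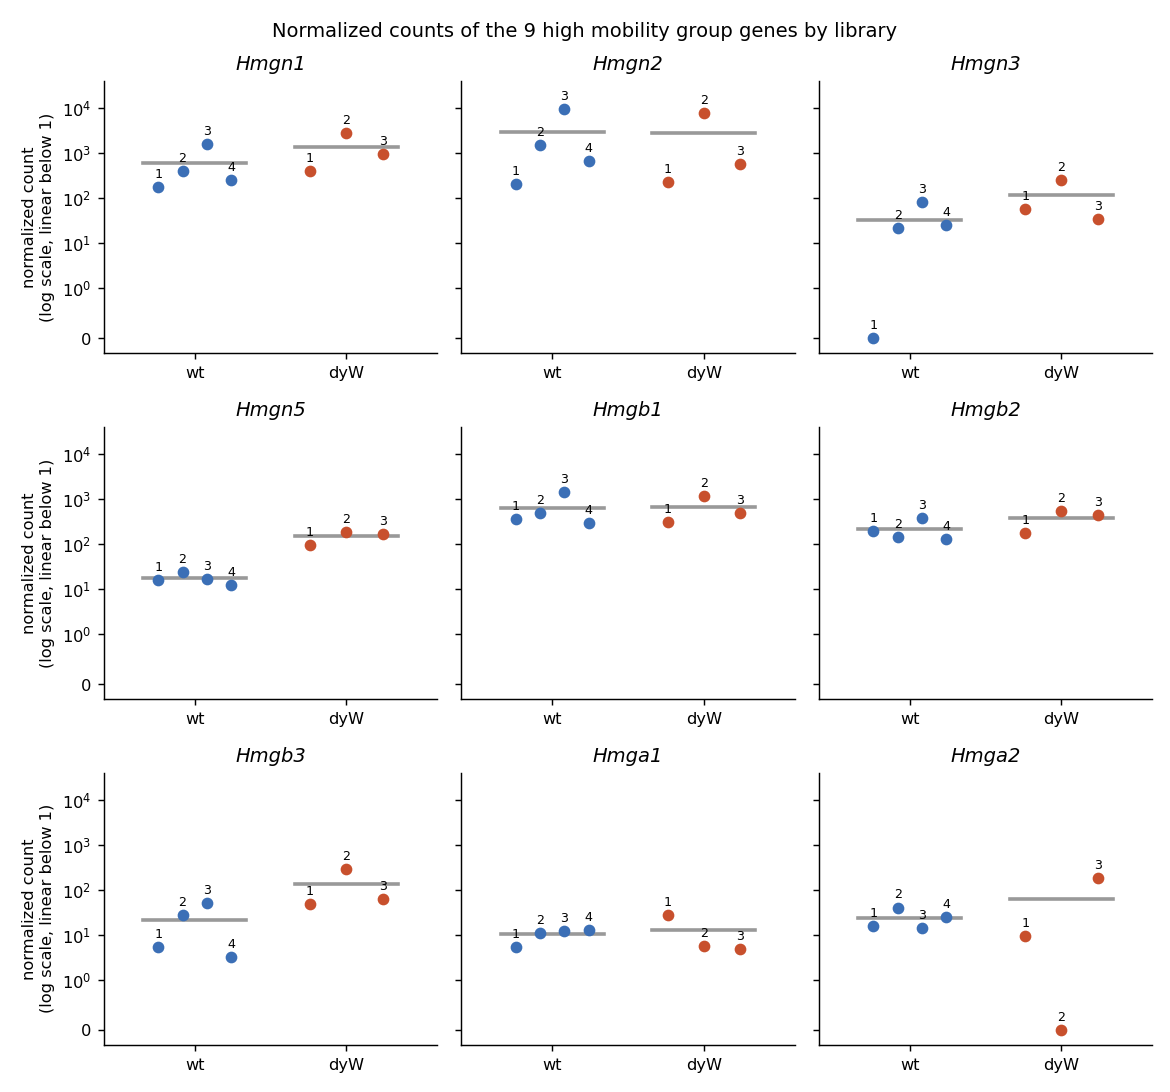
Normalized counts (log axis, linear below 1) of the 9 genes, with a point for each library labelled by its replicate number (blue, wt; orange, dyW) and a gray bar at each group's mean. The wt points of Hmgn5 lie between 12.6 and 24.3 and the dyW points between 92.9 and 188, whereas the groups of the other 8 genes overlap.

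The wt values of *Hmgn5* rest on very few reads. The libraries wt1, wt2, wt3 and wt4 held 3, 9, 8 and 4 reads on the gene, 24 in all. The dyW libraries held 953, 1483 and 333 reads in the order of their replicate numbers. As RPM, the reads of a gene scaled to a common total of reads counted on genes, this was 6.37 in wt1 with an exact 95% Poisson interval from 1.31 to 18.6, and this was the highest upper bound of the 4 wt libraries. The lowest lower bound of a dyW library was 62.2 RPM, in dyW1, where the value was 66.3. The dyW values reached 81.1 RPM in dyW2 and 90.9 in the library labelled dyW3. In RPM, therefore, the counting intervals of the wt libraries and the dyW libraries did not overlap. RPM also depends on the most abundant genes of a library. The 10 genes with the most reads took 43.3% to 77.3% of the reads in wt and 16.4% to 37.6% in dyW. The part of this difference in the RPM values was not tested.

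To see how low the wt level was, it was set beside genes used mainly outside muscle. The odorant and vomeronasal receptor genes, 1330 in the table and chosen after the data were seen, are expressed mainly in sensory neurons of the nose. Pooled over these genes, wt1 to wt4 held 1.37, 2.79, 1.97 and 2.15 reads per kb of exon. The level of *Hmgn5* was 0.558, 0.818, 1.03 and 0.474 times that level in the same libraries, so in 3 of the 4 wt libraries *Hmgn5* was read less per kb than the pooled receptor genes. In dyW1 it was 119 times the receptor level, in dyW2 953 times and in the library labelled dyW3 5.73 times. The receptor level itself was 2.04 reads per kb in dyW1, 0.395 in dyW2 and 14.8 in dyW3. Against the median receptor gene in place of the pooled level, *Hmgn5* was at 1.19, 0.909, 1.14 and 0.541 times in wt1 to wt4 and at 61.1 times in the library labelled dyW3, while that median was 0 in dyW1 and dyW2. The wt level of *Hmgn5* was therefore near the level of reads found on genes of this kind, and the ratio of 8.53 depends on that level. The same limit holds for other members. In wt, *Hmga1* was at 0.158 to 0.660 times the pooled level and *Hmga2* at 0.254 to 0.623. *Hmgb3* was at 0.102 to 2.77 times and *Hmgn3* at 0 to 4.20, each above 1 only in wt3. The part of such reads in the wt values was not tested.

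**Figure D2:**
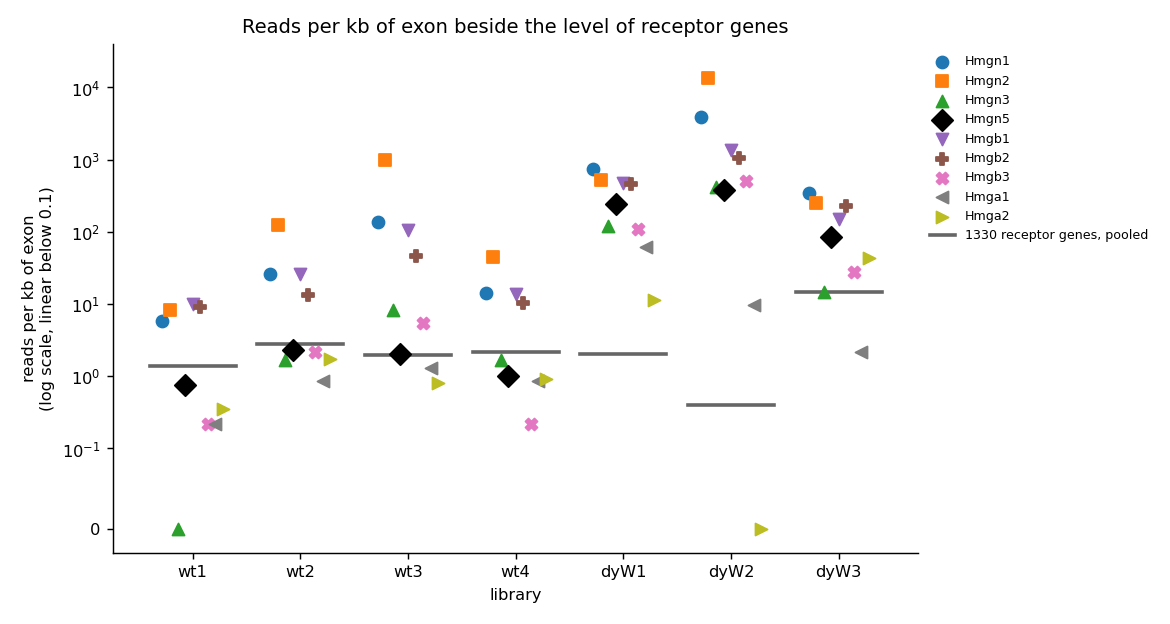
Reads per kb of exon (log axis, linear below 0.1) of the 9 genes in each library, with a gray line at the pooled level of 1330 odorant and vomeronasal receptor genes. Hmgn5 (black diamonds) lies at or below the line in wt1, wt2 and wt4, at 1.03 times it in wt3 and above it in all 3 dyW libraries, whereas Hmgn1, Hmgn2, Hmgb1 and Hmgb2 lie above it in every library.

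*Hmgn1* encodes the founding member of the family and was among the genes with the most reads of the 9. In libraries wt1 to wt4 its normalized counts were 176, 394, 1586 and 252. They were 410 in dyW1, 2771 in dyW2 and 940 in the library labelled dyW3. The library wt3 was above dyW1 and dyW3, so the groups overlapped. The log2 fold change was 1.32 with a standard error of 0.88, and the means were 602 ± 662 for the wt libraries (SD, n = 4) and 1374 ± 1239 for the dyW libraries (SD, n = 3). The fold change was 0.60 without dyW2, 1.97 without wt3 and 1.98 without dyW1.

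*Hmgn2* encodes the close relative of HMGN1 and varied widely between libraries of the same genotype. It had 203, 1524, 9350 and 658 normalized counts in wt1 to wt4. There were 231 in dyW1, 7756 in dyW2 and 569 in the library labelled dyW3. Each genotype thus had 1 library far above the others, wt3 and dyW2, and the groups covered nearly the same range. The log2 fold change was -0.22 with a standard error of 1.45, and its sign turned on single libraries, with 0.84 without dyW1, 0.78 without wt3, 0.19 without the library labelled dyW3 and -1.69 without dyW2. The ratio of both genes also varied between libraries. There were 115 to 590 *Hmgn2* reads per 100 *Hmgn1* reads in the wt libraries, and 56.4, 280 and 60.6 in dyW1, dyW2 and dyW3.

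*Hmgn3* encodes an HMGN protein with a more restricted pattern of expression. No read was found in wt1, which allows up to 3 reads or 6.37 RPM. The libraries wt2 to wt4 had 21.6, 82.1 and 25.2 normalized counts. There were 56.3 in dyW1, 256 in dyW2 and 34.7 in the library labelled dyW3. The library wt3 was above dyW1 and dyW3. The log2 fold change of 2.44 had a standard error of 1.45 and depends on wt1: without that library it was 1.14.

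The share of reads that the 9 genes took was small in every library, from 0.0254% to 0.284% of the reads on genes in wt and from 0.0975% to 0.560% in dyW. Within this share *Hmgn2*, *Hmgn1*, *Hmgb1* and *Hmgb2* took most of the reads. *Hmgn5* took 0.127% to 1.64% of the reads of the 9 genes in wt. In dyW it took 6.80% in dyW1, 1.45% in dyW2 and 5.62% in the library labelled dyW3. By this measure the genotypes overlapped, since dyW2 was below wt1. *Hmgn5* reads per 100 *Hmgn1* reads also overlapped, with 1.03 to 9.09 in wt and 6.77 to 22.7 in dyW. Per 100 *Hmgb2* reads there were 4.30 to 16.7 *Hmgn5* reads in wt and 34.8 to 52.4 in dyW, without overlap.

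**Figure D3:**
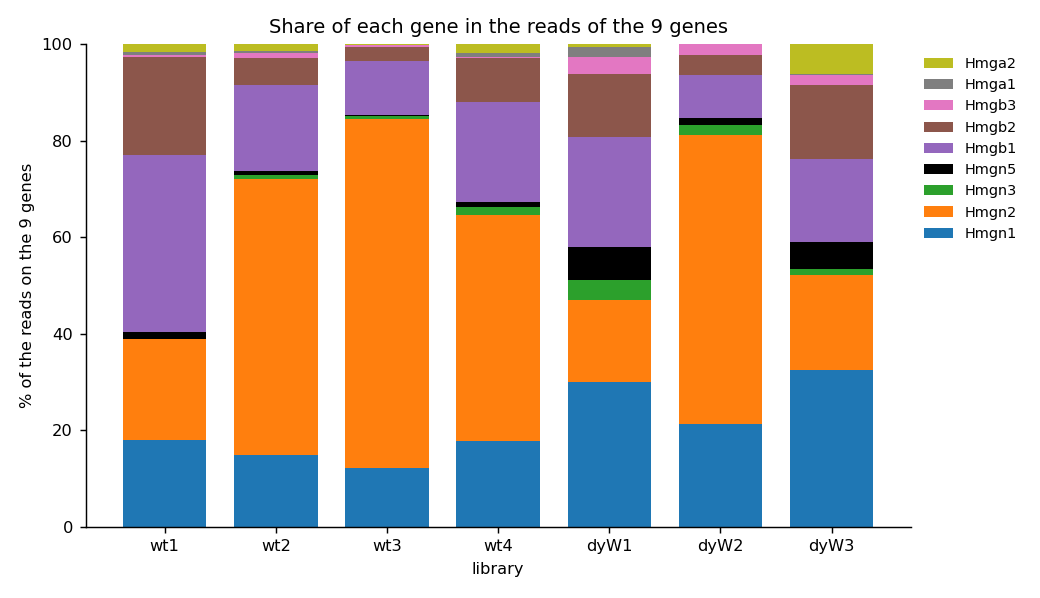
Share of each gene, in percent, in the reads of the 9 genes for each library. Hmgn2 (orange) takes from 16.9% in dyW1 to 72.2% in wt3, and Hmgn5 (black) from 0.127% in wt3 to 6.80% in dyW1.

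*Hmgb1* encodes the most studied HMG-box protein and had nearly equal means in the genotypes. The wt libraries had 357, 477, 1456 and 293 normalized counts in the order of replicate number. There were 312 in dyW1, 1150 in dyW2 and 497 in the library labelled dyW3. The groups covered nearly the same range, with wt3 the highest of all 7 libraries. The mean was 646 ± 546 for the wt libraries (SD, n = 4) and 653 ± 441 for the dyW libraries (SD, n = 3), and the log2 fold change was 0.12 with a standard error of 0.69. Its sign also turned on single libraries, with values from -0.40 without dyW2 to 0.61 without wt3.

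*Hmgb2* encodes the HMGB protein known for its high level in dividing cells. There were 197, 146, 382 and 129 normalized counts in wt1 to wt4. They numbered 177 in dyW1, 538 in dyW2 and 440 in the library labelled dyW3. Here dyW2 and dyW3 were above every wt library, and dyW1 lay among them. The log2 fold change was 0.84 with a standard error of 0.62, and it was 0.52 without dyW2 and 1.32 without dyW1. Of the 17 proliferation genes tested beside it, 0 were called in either direction by limma and their median log2 fold change was 0.32. At an unadjusted p under 0.05, 3 of the 17 were higher and 0 lower, where 2.81% and 41.5% of all genes tested were, and voom, the limma method for read counts, called 0 when run on the recovered reads. Of the 17, 2 did not overlap with dyW above and 0 with dyW below, against 3.28% and 31.5% of all genes tested.

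*Hmgb3*, on the X chromosome like *Hmgn5*, encodes an HMGB protein of embryonic and stem cells. Its wt values were 5.33, 27.0, 51.3 and 3.15 normalized counts in wt1 to wt4. Its dyW values were 48.9 in dyW1, 296 in dyW2 and 61.5 in the library labelled dyW3. The groups overlapped only through wt3, which was just above dyW1. The log2 fold change was 2.80 with a standard error of 1.09, and wt1 and wt4 held 1 read each. Leaving out 1 library gave 2.0 without dyW2 at the lowest and 3.43 without wt3 at the highest.

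The HMGA genes had the lowest median normalized counts per kb of exon of the 9, and both were below the pooled receptor level in every wt library. *Hmga1* had normalized counts of 5.33, 10.8, 12.3 and 12.6 in wt1 to wt4, from 1, 4, 6 and 4 reads. It had 27.5 in dyW1, 5.69 in dyW2 and 4.88 in the library labelled dyW3. The dyW libraries lay on both sides of the wt libraries, and the log2 fold change was -0.05 with a standard error of 0.81, or from -0.78 without dyW1 to 0.36 without dyW3. The mean was slightly higher in dyW, with 10.3 ± 3.38 for the wt libraries (SD, n = 4) and 12.7 ± 12.8 for the dyW libraries (SD, n = 3), and dyW1 was the highest of the 7 libraries.

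*Hmga2*, a gene of fetal growth, had normalized counts of 16.0, 40.5, 14.4 and 25.2 in wt1 to wt4. It had 9.65 in dyW1, 182 in the library labelled dyW3, and 0 in dyW2, where no read allows up to 3 reads or 0.164 RPM. The dyW libraries again lay on both sides of the wt libraries. The log2 fold change was -0.89 with a standard error of 1.52, whereas the mean was higher in dyW, with 24.0 ± 12.0 for the wt libraries (SD, n = 4) and 63.8 ± 102 for the dyW libraries (SD, n = 3). The sign of the log2 fold change turned on single libraries, with 0.93 without dyW2 and -2.82 without the library labelled dyW3. The high mean rests on the library labelled dyW3, which held 372 of the 471 *Hmga2* reads of the dyW group.

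As a list, the 9 genes had a median log2 fold change of 0.84, with 6 values above 0 and 3 below. The median over all 25791 genes tested was -1.99, and over the 6111 genes averaging at least 50 normalized counts it was 0.20. The background against which a member is read thus moved by more than 2 log2 units with the choice of genes. Scaling all libraries to the same read total, as RPM, separated the groups for 4 of the 9 genes. These were *Hmgn3*, *Hmgn5*, *Hmgb2* and *Hmgb3*, all higher in dyW, and the same separation was found in 9.08% of all genes tested. RPM carries the difference between the genotypes in the share of the 10 genes with the most reads. For *Hmgb2* the RPM values were 23.3 to 83.8 in wt and 126 to 246 in dyW. For *Hmgb3* they were 0.568 to 11.3 in wt and 34.4 to 128 in dyW, and for *Hmgn3* 0 to 18.0 and 19.4 to 111. For *Hmgn3* the counting intervals overlapped, from 12.9 to 24.5 RPM in wt3 and from 15.1 to 24.4 in the library labelled dyW3.

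**Figure D4:**
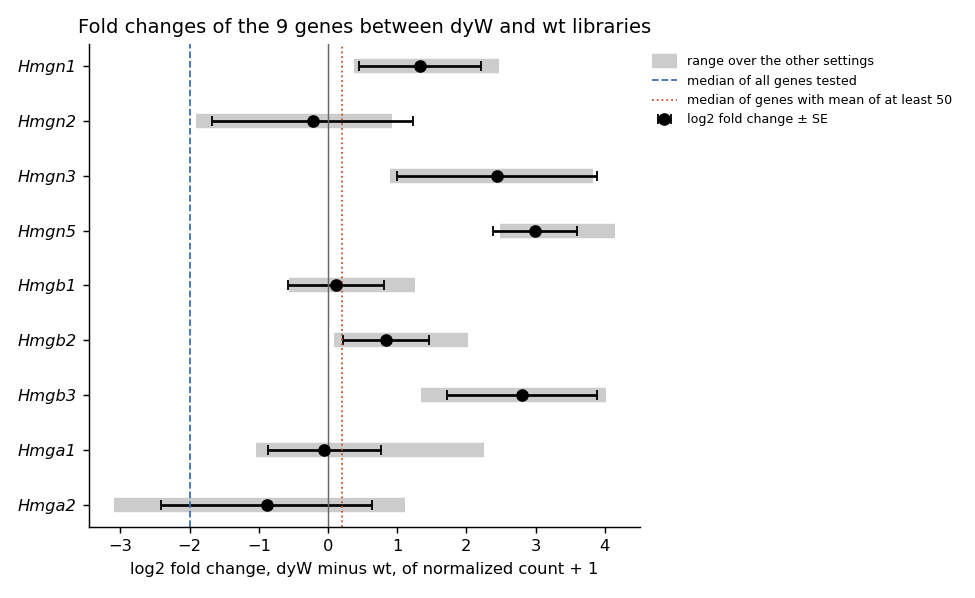
Log2 fold change (dyW minus wt, of normalized count + 1) of the 9 genes with its standard error (black), and the range over the other settings tried (gray). Hmgn5 ranges from 2.49 to 4.15, and the ranges of Hmgn2, Hmgb1, Hmga1 and Hmga2 reach both sides of 0. Dashed and dotted lines mark the medians of all genes tested (-1.99) and of genes with a mean of at least 50 (0.20).

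Levels were compared between the genes per kb of exon, in normalized counts. By the median of the 7 libraries the order was *Hmgn2* (143 per kb), *Hmgn1* (72.8), *Hmgb1* (70.7), *Hmgb2* (49.2), *Hmgb3* (10.7), *Hmgn3* (7.18), *Hmgn5* (6.17), *Hmga1* (2.34) and *Hmga2* (1.85). Only 2 steps between neighbours were larger than their spread over the libraries. *Hmgb2* was above *Hmgb3* in 7 of 7 libraries, by 2.88 ± 1.24 on the log2(value + 1) scale (SD, n = 7), and *Hmgn5* was above *Hmga1* in 7 of 7, by 1.95 ± 1.76. That second step pooled genotypes between which *Hmgn5* differed, and it was 0.75 ± 0.50 in the wt libraries (SD, n = 4) and 3.54 ± 1.49 in the dyW libraries (SD, n = 3). In wt both genes were near or below the pooled receptor level. The other 6 neighbours did not differ beyond their spread with this length. With the length of the longest consensus coding transcript in place of all exons, *Hmga2* came next after *Hmgn5*, and that step of 1.20 ± 2.31 did not exceed its spread. With that length *Hmgn2* exceeded *Hmgn1* by 1.58 ± 1.32 and *Hmgb1* exceeded *Hmgb2* by 1.17 ± 0.58, both beyond their spread. The order also pooled the genotypes: in dyW *Hmgn1* came first and *Hmgb2* stood above *Hmgb1*, and in wt *Hmgb1* stood above *Hmgn1* and *Hmgb3* at rank 7. These orders hold by the median only, and the steps did not exceed their spread. In dyW *Hmgn1* was above *Hmgn2* in 2 of 3 libraries, by -0.27 ± 1.30 on average, and *Hmgb2* above *Hmgb1* in 1 of 3. In wt *Hmgb1* was above *Hmgn1* in 2 of 4. Within the genotypes *Hmgn5* stood at rank 6 of 9 in wt, with a median of 4.12 per kb, and at rank 5 in dyW, with 41.3 per kb.

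The position of *Hmgn5* was examined, since neighbouring genes can share reads. It overlaps *Sh3bgrl*, a gene on the plus strand that encodes a small thioredoxin-like protein, but no exonic base of *Hmgn5* is shared with an exon of a gene in the table. *Sh3bgrl* had normalized counts of 85.3, 116, 164 and 91.3 in wt1 to wt4 and 569, 441 and 251 in dyW1 to dyW3, without overlap. Its log2 fold change was 1.84 (adjusted p = 0.0289, limma with Benjamini-Hochberg adjustment), short of the threshold of 0.01. The next genes on the other side, *Brwd3* and *2810403D21Rik*, had log2 fold changes of -0.50 (adjusted p = 0.740) and 0.36 (adjusted p = 0.795, limma). Among the other members, *Hmga1* shares 14.5% of its exonic bases with *Smim29* on the opposite strand and *Hmgb1* shares 6.47% with *Uspl1*, and the strand setting of the counting was not given in the sources used here.

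Copies elsewhere in the genome limit some of the levels, since only uniquely mapped reads were counted. The share of 50-base words of the transcript that also occur outside the gene was 74.6% for *Hmgn2* and 57.8% for *Hmgb1*, both genes with many processed copies. It was 12.0% for *Hmgn5*, 0.154% for *Hmgn3* and 22.1% to 35.4% for the other 5. With 100-base words the share was 64.1% for *Hmgn2*, 45.6% for *Hmgb1*, 7.44% for *Hmgn5* and 0% for *Hmgn3*. For the other 5 it was 6.52% to 26.1%. Reads of such words have no unique place, so the levels of *Hmgn2* and *Hmgb1* relative to the other genes may be too low. The 8 copies listed in the table under their own names, such as *Hmgb1-ps7* and *Hmga1b*, held together 0.0999% to 4.37% as many reads as the 9 genes in a library.

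Sex-linked genes were read unevenly between the libraries, and *Hmgn5* and *Hmgb3* are X-linked. The Y-linked gene *Ddx3y* had 192 normalized counts in wt1 and 37.8 in wt4, 0.488 in dyW3 and 0 in the other 4 libraries. *Xist*, the RNA of X inactivation, was at 16.0, 124, 297 and 37.8 in wt1 to wt4 and at 4132, 461 and 3785 in dyW1 to dyW3. Its log2 fold change was 4.78 (adjusted p = 0.0113, limma). X-linked genes with a mean of at least 50 had a median log2 fold change of 0.83 (206 genes), against 0.18 for such autosomal genes (5883 genes). Over all genes tested the medians were -0.96 on the X chromosome (784 genes) and -2.02 on the autosomes (24775 genes). With wt1 and wt4 left out, a choice made after the data were seen, the log2 fold change was 2.76 for *Hmgn5* and 1.35 for *Hmgb3*. The kept libraries were not matched in sex-linked genes, since *Xist* was lower in wt2 and wt3 than in every dyW library and these held 5 and 2 reads of the Y-linked gene *Kdm5d*. The part of sex in the differences of *Hmgn5* and *Hmgb3* was not tested.

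Markers of cell types were set beside the *Hmgn5* values. Of the 7 fibroblast genes, 0 were called, and 2 did not overlap between the genotypes, with dyW above, as for 3.28% of all genes tested. Of the 10 myofiber genes, 0 were called, and 1 did not overlap, with dyW below, as for 31.5% of all genes tested. Over all genes 0.0659% were called higher and 18.7% lower. The fibroblast genes *Col1a2*, a chain of type I collagen, and *Pdgfra*, a receptor of connective-tissue progenitors, had log2 fold changes of 2.10 (adjusted p = 0.0157) and 1.98 (adjusted p = 0.0286, limma). The myofiber gene *Ttn* had -2.66 (adjusted p = 0.0201). These 3 genes were chosen after their values were seen and none of them reached the threshold of 0.01. Their part in the *Hmgn5* difference was not tested. *Hmgn5* was at 92.9 in dyW1, where most myofiber genes were not read, and at 188 in dyW2, where all 10 were read. Without wt1, the library with the highest summed cartilage genes, and dyW1, the one with the lowest summed myofiber genes, its log2 fold change was 3.27.

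The genes whose pattern over the 7 libraries was most like that of *Hmgn5* were sought among the 6111 genes with a mean of at least 50, by Pearson correlation of log2(normalized count + 1). The 5 highest were *Suz12*, a subunit of the Polycomb repressive complex PRC2 (r = 0.992), *Fbxo3*, a substrate receptor of a ubiquitin ligase (r = 0.974), *Pkn2*, a protein kinase (r = 0.973), *Ppig*, a nuclear peptidyl-prolyl isomerase (r = 0.972), and *Capn7*, an atypical calpain (r = 0.966). These values describe 7 libraries that also differ in depth and genotype. *Suz12* was at 37.8 to 62.0 normalized counts in wt and 148 to 177 in dyW. Of the other members *Hmgb3* was the most alike (r = 0.80) and *Hmgn2* the least (r = 0.08) of the 6 with a mean of at least 50.

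**Figure D5:**
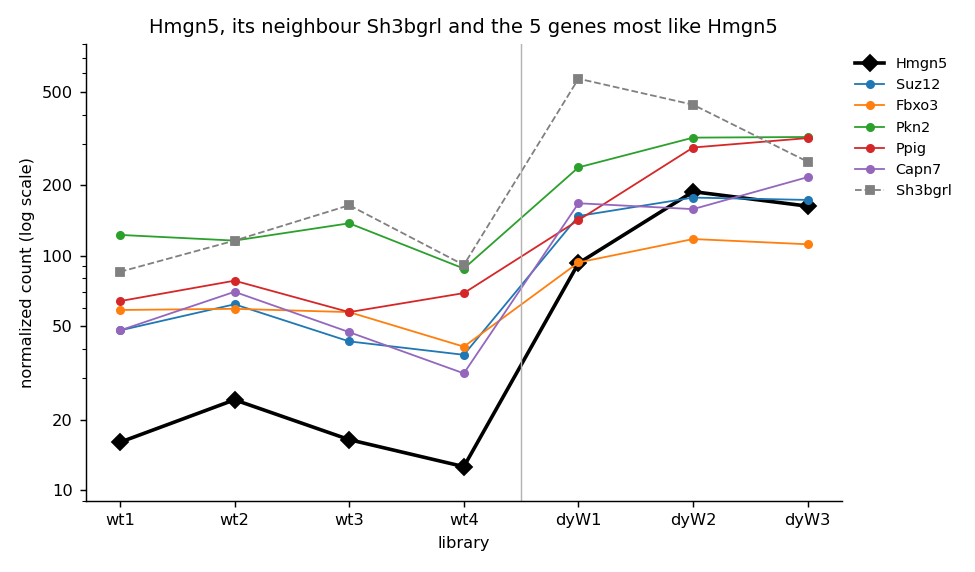
Normalized counts (log axis) of Hmgn5 (black), of the 5 genes most correlated with it and of its neighbour Sh3bgrl (gray, dashed) in each library; lines join the points only to guide the eye. Hmgn5 lies between 12.6 and 24.3 in wt and between 92.9 and 188 in dyW, and Suz12 between 37.8 and 62.0 and between 148 and 177.

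Related genes were counted in 5 lists by what they encode, 56 genes tested in all. Of these 56, 0 were called higher and 4 lower in dyW by limma, where 0.0659% and 18.7% of all genes tested were. Among autosomal genes averaging at least 50 normalized counts, 142 of 5883 were called lower and 15 higher, so the shares over all genes do not hold at every level. At an unadjusted p under 0.05, 7 were higher and 8 lower, where 2.81% and 41.5% of all genes tested were. By voom on the recovered reads, 2 were called higher and 2 lower, where 68 and 5325 of all 25791 genes tested were. At an adjusted p under 0.05 and the same fold, 2 were higher and 5 lower, where 259 of all 25791 genes tested were higher and 7625, or 29.6%, were lower. Among the other HMG-box proteins, 0 of 16 were called by limma or by voom, 1 was higher and 1 lower at an unadjusted p under 0.05, and their median log2 fold change was 0.46. Of these 16, 3 did not overlap with dyW above and 1 with dyW below, where 3.28% and 31.5% of all genes tested did so. The chromatin remodeller subunit *Pbrm1* had the highest normalized counts of this list, with 99.8 to 219 normalized counts in wt and 204 to 514 in dyW (log2 fold change 1.46, adjusted p = 0.0815).

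Linker histones are the proteins with which HMGN proteins compete. Of the 5 tested, 0 were called by limma or by voom and 1 was lower at an unadjusted p under 0.05, where 18.7% and 41.5% of all genes tested were called lower and lower at that p. *H1f0*, the replacement form and the one with the highest normalized counts, had 101 to 1206 normalized counts in wt and 75.7 to 815 in dyW (log2 fold change -0.34, adjusted p = 0.824). The gene lower at that p was *H1f4*, with 10.8 to 26.7 in wt and 0 to 4.05 in dyW (log2 fold change -2.68, adjusted p = 0.0373). Linker histones made in S phase have messenger RNAs without a poly(A) tail, and such messages are poorly captured by poly(A) priming.

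Histone variants, chaperones and other architectural proteins had a median log2 fold change of 1.16 over the 23 tested, and 0 were called by limma. By voom 2 were called higher and 0 lower, where 68 and 5325 of all 25791 genes tested were. At an unadjusted p under 0.05 limma had 6 higher and 1 lower, where 2.81% and 41.5% of all genes tested were. The groups did not overlap, with dyW above, for 9 of the 23, against 3.28% of all genes tested. *H3f3b*, a gene of the replacement histone H3.3 and the one with the highest normalized counts, had 469 to 7077 normalized counts in wt and 1132 to 13236 in dyW (log2 fold change 1.30, adjusted p = 0.398). The genes that passed an adjusted p under 0.05 were *Ncl* and *Smarca5*. *Ncl*, the nucleolar protein nucleolin, had 142 to 331 normalized counts in wt and 506 to 1081 in dyW (log2 fold change 1.78, adjusted p = 0.0328). *Smarca5*, the ATPase of the ISWI remodellers, had 82.1 to 138 and 255 to 366 (log2 fold change 1.53, adjusted p = 0.0434).

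Of the HMGB1 receptors and partners, 3 of 7 tested were called lower and 0 higher by limma, and 1 lower and 0 higher by voom. The 3 called by limma were *Tlr4*, the receptor for bacterial lipopolysaccharide (log2 fold change -4.30, adjusted p = 0.00477), *Tlr9*, the receptor for unmethylated DNA (-3.57, adjusted p = 0.00459), and *Havcr2*, the immune checkpoint receptor TIM-3 (-3.71, adjusted p = 0.00449). In dyW no library held a read of *Tlr9*. Against a floor of 3 reads per dyW library, its wt mean was 16.7 times that floor, and 12.3 times without wt1. The counting error of the few wt reads is not in these values. All 3 genes passed the minimum mean of 5 only through the wt libraries, since their dyW means were 0.326 or less. The wt values of the 3 genes were 6.15 to 48.5 normalized counts, and 18.7% of all genes tested were called lower. They came from 3 to 4 reads per wt library for *Tlr9*, 4 to 6 for *Havcr2* and 2 to 18 for *Tlr4*. The groups did not overlap, with dyW below, for 4 of the 7, against 31.5% of all genes tested. Immune markers were set beside these receptors, which immune cells express: the summed level of 5 was 107 to 529 normalized counts in wt and 58.1 to 296 in dyW. Of these 5 markers 0 were called, and 4 had log2 fold changes below 0, from -4.26 for *Ptprc*, the leukocyte antigen CD45, to -2.29 for *Csf1r*, the receptor of macrophage growth factor, whereas *Cd68*, a macrophage protein, had 0.90. *Ptprc* was at 58.6 to 120 in wt, at 0 in dyW1 and dyW2 and at 99.6 in the library labelled dyW3 (adjusted p = 0.0627, limma). The part of immune cells in the receptor values was not tested. *Cxcl12*, the chemokine that forms a complex with HMGB1, had 21.3 to 123 in wt and 89.5 to 200 in dyW (log2 fold change 0.73, adjusted p = 0.491). Of the 5 genes of the *Hmga2* axis, *Lin28a*, which blocks let-7 maturation, was called lower (log2 fold change -3.93, adjusted p = 0.00797), with 5.33, 53.9, 8.21 and 15.7 normalized counts in wt1 to wt4 and no read in dyW. Its wt mean was 29.2 times the same floor, and 13.7 times without wt2. *Lin28a* also passed the minimum mean of 5 only through the wt libraries. The limma calls of *Tlr4*, *Tlr9*, *Havcr2* and *Lin28a* were all lost when wt2, wt4, dyW1 or dyW2 was left out. *Igf2bp2*, a known target of HMGA2, had 127 to 157 normalized counts in wt and 42.6 to 147 in dyW (log2 fold change -0.70, adjusted p = 0.394).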

How the data were processed

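Reads of 4 wt and 3 dyW libraries were trimmed with Cutadapt, aligned to GRCm39 with STAR and assigned to genes by the authors with FeatureCounts when uniquely mapped. The authors deposited normalized counts, the reads divided by 1 DESeq2 size factor per library. Versions, annotation and strand setting were not given in the sources used here. The deposited table of fold changes and p-values was not used. Within every library 100% of the values were whole multiples of 1 step (within 0.02 reads), so whole reads were recovered.

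Genes with a mean of at least 5 were compared by limma (version 3.58.1, R version 4.3.3), which fitted log2(normalized count + 1) by lmFit and eBayes with a trend, without covariates. Positions and exon lengths came from GENCODE vM39. The pipeline was tested on simulated data. Exact copies of transcript words were searched on both strands of the genome with numba 0.67.0, and other values were computed with Python 3.11.15, pandas 2.3.3 and scipy 1.17.1.

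The members and lists were chosen with earlier results of these data known. All 9 members are named. Genes of related lists are named where called or where among the highest levels of a list, and 5 genes by correlation with *Hmgn5*. The receptor genes, the neighbours of *Hmgn5*, the genes named only for an adjusted p under 0.05 and 3 alternatives were chosen after seeing the data. P-values measure the spread between these libraries.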

Additional observations from a re-analysis of the deposited data

Results flagged for a closer look

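For 3 of the 9 genes, the same wt library lay apart from the other 3 by Dixon's criterion. Chance meets it in about 1 of 20 groups of normally distributed values. The counts were used here without a log and are skewed, so that rate need not hold. The 3 genes share 1 library and are not 3 separate events. In wt3, *Hmgn1* was at 1586 normalized counts, *Hmgn2* at 9350 and *Hmgb1* at 1456, and each was the highest of the 4 wt libraries. The wt groups of the other 6 genes held no such library, and the dyW groups of 3 were not tested in this way. The library wt3 also had the most reads of the wt libraries, 2220813, and the highest summed level of myofiber genes, 84589. Whether these values are linked was not tested.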

How the results depend on the processing

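*Hmgn5* was higher in dyW under all 17 other settings, with a log2 fold change from 2.49 to 4.15, and under the leave-one-out settings from 2.80 to 3.30. Its call was lost in most: the number of members called higher, 1, was 0 with a pseudocount of 10, a mean of at least 50, scaling to the same total, quantile normalization, voom, wt1 and wt4 both left out, and wt1 and dyW1 both left out. Leaving out a library gave 0 or 1, with 1 only without the library labelled dyW3. No member was called lower under any of these settings. *Hmgn1*, *Hmgn3*, *Hmgb2* and *Hmgb3* kept values above 0 under all 17, whereas *Hmgn2* was above 0 in 5 and *Hmgb1* in 11 of 17, and *Hmga1* in 9 and *Hmga2* in 4 of 16.

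The calls over all genes depended on the same choices. The counts of 4830 lower and 17 higher genes became 0 and 0 with a pseudocount of 10, a mean of at least 50, the same total, or wt1 and dyW1 both left out. They became 2 and 0 with quantile normalization, and 2198 and 0 with wt1 and wt4 both left out. Higher calls were 41 with a pseudocount of 0.1, 10 with no filter and 68 with voom. At an adjusted p under 0.05 they were 7625 and 259. Leaving out a library gave 0 to 6698 lower and 0 to 25 higher genes. Both counts were 0 without wt2, wt4 or dyW2, and 2090 and 3 without dyW1. The median log2 fold change of all genes was -1.99, but -1.24 with the same total and 0.06 with quantile normalization. It was -3.26 with a pseudocount of 0.1 and -0.80 with a pseudocount of 10. The cause was not tested.

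Of the related genes, 4 called lower became 0 with a pseudocount of 10, a mean of at least 50, the same total, quantile normalization, and wt1 and dyW1 both left out, 2 with voom and 1 with wt1 and wt4 both left out. Leaving out a library gave 0 to 4, with 0 without wt2, wt4, dyW1 or dyW2. Called higher were 2 with voom and 2 at an adjusted p under 0.05. In the order of levels, 4 to 9 of the 9 members kept their rank when a library was left out, with 4 without wt2, wt3 or wt4 and 5 without dyW1.

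With a replicate block, 1 lower and 0 higher genes were called, with 0 members and 0 related genes, and the log2 fold change of *Hmgn5* was 2.87. The labels do not state that equal numbers pair the samples. The deviations of same-numbered libraries correlated at 0.38, 0.01 and -0.15. The best-matching wt library was wt1 for dyW1, wt3 for dyW2 and wt4 for dyW3. These values cannot settle whether samples were paired.

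The planned count tests on recovered reads were not run, and voom took their place. Voom, leaving out wt1 and wt4 together, the libraries with the most Y-linked reads, and leaving out wt1 and dyW1 together were chosen after seeing the data. With 24 *Hmgn5* reads in wt, depth limits how far its fold change can be read.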
